A study of Mus musculus with 8 samples.

Results

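The interferon regulatory factor (IRF) family was examined by RNA sequencing of iTreg with and without surface Nrp-1. Its members were the genes of the deposited expression table with the symbols Irf1, Irf2, Irf3, Irf4, Irf5, Irf7, Irf8, Irf9 and Irf2bp2, which is 9 of 23361 genes, and each of the 9 passed the filter on low values (a mean of at least 1 FPKM over the 8 libraries). Irf2bp2 encodes a co-repressor that binds Irf2 and is not itself an IRF, so the list holds 1 partner protein beside 8 DNA-binding factors. Irf2bp1 and Irf2bpl, the relatives of Irf2bp2, are given beside the members, so that 11 family genes are described. FPKM stands for fragments per kilobase of transcript, scaled to the mapped fragments of a library, so levels can be compared between genes per unit of length. The summed FPKM of the 8 libraries ran from 693961 to 1217750 while their median-of-ratios size factors were all between 1.001 and 1.003, so the values may already have been scaled between libraries, a step not stated in the sources used here.

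IRF proteins bind DNA through a shared domain that reads GAAA repeats, the core of the interferon-stimulated response element (ISRE). Irf3 and Irf7 are activated by kinases downstream of nucleic acid sensors and drive type I interferon genes, Irf9 joins STAT proteins in the complex that answers type I interferon, and Irf1 is itself induced by interferon-γ, with Irf2 competing for many of its sites. In T cells Irf4 is induced by antigen receptor signals and, with Batf and Jun proteins, controls effector programmes, including those of effector Treg, whereas Irf5 and Irf8 are best known from myeloid cells and B cells.

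All 8 libraries came from wild-type mice with a red fluorescent Foxp3 reporter (Foxp3-RFP), and both groups shared every treatment. Naïve CD4+ T cells received anti-CD3/CD28 beads, IL-2 at 50 U/ml and TGF-β at 2 ng/ml during 3 days of culture, and viable Foxp3-RFP+ cells (induced Treg, iTreg) were sorted into an Nrp-1+ and an Nrp-1- fraction, with 4 libraries in each. Another sample field gives day 5, and the paper's methods give another IL-2 unit and another library kit, a directional one, than the sample fields, so the time, the dose and the kit are not settled. Libraries are labelled as biological replicates 1 to 4, with no statement of which cultures or animals they came from, so p-values measure only the spread between these libraries. Mice were 7 to 8 weeks old, a range given for the study as a whole and not per library.

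The sort itself was visible in the data, with Nrp1 at 21.5 ± 0.709 FPKM in the Nrp-1+ and 4.95 ± 0.262 FPKM in the Nrp-1- fraction (SD, n = 4 each). Each of the 6 CD4 Treg markers reached a mean of at least 1 FPKM, with a sum of 1477.55 to 1510.07 FPKM in Nrp-1+ iTreg and 1508.77 to 1581.47 FPKM in Nrp-1- iTreg. Of the markers of other cells, 1 of 6 for B cells (Cd79b), 1 of 10 in the table for myeloid and dendritic cells (Itgam) and 1 of 4 for CD8 T and NK cells (Cd8b1) reached that mean, and Ms4a1, Pax5, Blnk and Clec9a were listed at 0 in every library. Relative depth ran from 0.810 to 1.24 of the first Nrp-1+ iTreg library. It was read from genes under 0.3 FPKM, of which 54.3% to 58.9% stood in a ratio of small whole numbers to that library within 0.5%. Short RNA genes held between 1.77% and 43.9% of a library's summed FPKM. In bulk RNA, fewer cells that express a gene and less RNA of it per cell cannot be told apart.

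The proximal promoters are shown first for 5 family genes. Irf1 is the member with the largest difference and Irf4 the one with the largest increase on the log2 scale. Irf2, Irf2bp2 and Irf8 are the other members with a match to a searched motif, so matches are over-represented among the windows shown. Each line holds the 250 bases before the transcription start, 5′ to 3′ on the strand of the gene, from the RefSeq promoter table of build GRCm38.p6, in which all 11 family genes were matched. The windows lie at chr11:53769764-53770013 (plus strand, Irf1), chr13:30748983-30749232 (plus, Irf4), chr8:46739495-46739744 (plus, Irf2), chr8:126593987-126594236 (minus, Irf2bp2) and chr8:120736108-120736357 (plus, Irf8). Capitals mark the matches described after the sequences.
Irf1: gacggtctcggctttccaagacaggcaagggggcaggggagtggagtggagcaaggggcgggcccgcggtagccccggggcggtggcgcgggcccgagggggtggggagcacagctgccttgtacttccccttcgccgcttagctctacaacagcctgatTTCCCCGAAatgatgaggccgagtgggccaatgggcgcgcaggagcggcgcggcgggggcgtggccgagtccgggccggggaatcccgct
Irf4: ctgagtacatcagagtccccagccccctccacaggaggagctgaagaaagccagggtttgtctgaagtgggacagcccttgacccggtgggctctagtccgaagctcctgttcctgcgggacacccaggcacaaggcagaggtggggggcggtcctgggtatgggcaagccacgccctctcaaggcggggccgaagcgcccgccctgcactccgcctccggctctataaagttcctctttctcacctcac
Irf2: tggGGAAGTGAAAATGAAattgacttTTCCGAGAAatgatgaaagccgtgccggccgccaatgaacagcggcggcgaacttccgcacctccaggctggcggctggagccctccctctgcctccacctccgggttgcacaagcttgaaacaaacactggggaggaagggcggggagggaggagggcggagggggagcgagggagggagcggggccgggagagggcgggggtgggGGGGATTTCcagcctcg
Irf2bp2: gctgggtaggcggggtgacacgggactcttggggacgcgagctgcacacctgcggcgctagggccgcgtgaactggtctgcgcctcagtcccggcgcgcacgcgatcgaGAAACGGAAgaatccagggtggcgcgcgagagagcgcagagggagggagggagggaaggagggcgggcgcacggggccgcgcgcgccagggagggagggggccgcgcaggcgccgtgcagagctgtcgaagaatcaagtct
Irf8: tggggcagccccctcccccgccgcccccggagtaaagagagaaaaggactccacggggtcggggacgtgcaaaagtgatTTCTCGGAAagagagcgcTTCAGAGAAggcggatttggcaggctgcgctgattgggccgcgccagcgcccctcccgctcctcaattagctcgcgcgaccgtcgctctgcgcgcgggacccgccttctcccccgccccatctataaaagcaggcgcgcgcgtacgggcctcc

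Both strands were searched for ISRE (GAAANNGAA), an ETS-IRF composite element (GGAANNGAA), GAS, the element read by STAT dimers (TTCNNNGAA), AP-1 (TGANTCA) and NF-kB (GGGNNTTTC). Irf1 held 1 GAS match 90 to 82 bases before its start, with no ISRE match. Irf2 held the most kinds, with an ETS-IRF match at -247 to -239 that overlaps an ISRE match at -241 to -233, a GAS match at -224 to -216 and an NF-kB match at -17 to -9. Irf2bp2 held an ISRE match at -141 to -133, and Irf8 held GAS matches at -171 to -163 and -153 to -145. Of the relatives of Irf2bp2, Irf2bp1 held 1 GAS match at -59 to -51 and Irf2bpl held no match. No member window held an AP-1 match, and those of Irf3, Irf4, Irf5, Irf7 and Irf9 held none of the 5 motifs. The Irf5 window, at chr6:29526375-29526624, lies inside the annotated gene, which starts at 29526130. That of Irf7, at chr7:141266425-141266674, overlaps the 5′ end of the gene at 141266499. Of the 12 windows of the 9 members (Irf1, Irf8 and Irf9 have 2 starts in the table), 2 held ISRE, 3 held GAS, 1 held ETS-IRF and 1 held NF-kB. Over all 32851 windows of the table the shares were 7.13% for ISRE, 7.02% for GAS, 6.99% for ETS-IRF, 6.75% for AP-1 and 3.72% for NF-kB. A match describes letters in this window and is not a bound site, and a site that departs from these fixed patterns was not counted.

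Irf1 was the most abundant member in both groups, followed by Irf9 and Irf2. Over the 8 libraries the mean was 99.1 FPKM for Irf1, 57.3 for Irf9, 51.7 for Irf2, 43.0 for Irf2bpl, 40.8 for Irf2bp2 and 27.2 for Irf4. It was 26.5 FPKM for Irf3, 22.6 for Irf2bp1, 19.1 for Irf8, 9.48 for Irf7 and 7.91 for Irf5. The T cell factors Irf1, Irf2 and Irf4 and the interferon complex subunit Irf9 thus stood above Irf7 and Irf5 in every library. Neighbours in this order overlapped in 3 places, each in 1 group only: Irf2bpl with Irf2bp2 in Nrp-1+ iTreg, Irf4 with Irf3 in Nrp-1- iTreg, and Irf7 with Irf5 in Nrp-1+ iTreg.

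The comparison asks which IRF genes differed between iTreg that carry Nrp-1 and those that do not. In Nrp-1+ iTreg, Irf4 and Irf2bp2 were higher and Irf1, Irf9, Irf7 and Irf2 were lower (adjusted p under 0.05 by limma on log2(FPKM + 1), Benjamini-Hochberg over all 10467 genes tested), while Irf3, Irf5 and Irf8 did not pass. These 6 of 9 members are read against a background of 40.9% of all tested genes called, 20.9% higher and 20.0% lower, so a call alone is common in this table. The groups did not overlap for 5 of the 9 members, 2 higher and 3 lower, against 39.5% of all tested genes. The median log2 fold change of the members was -0.04, that of Irf3, beside -0.02 over all tested genes, and with libraries scaled to an equal sum without short RNA genes Irf3 was at 0.025 and all genes at 0.04. None of the differences reached 1.5-fold, and the largest, that of Irf1, was -22.6%. Leaving out library 3 of either group left 1 member called higher, and leaving out library 2 of Nrp-1- iTreg left 2 called lower.

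**Figure D1:**
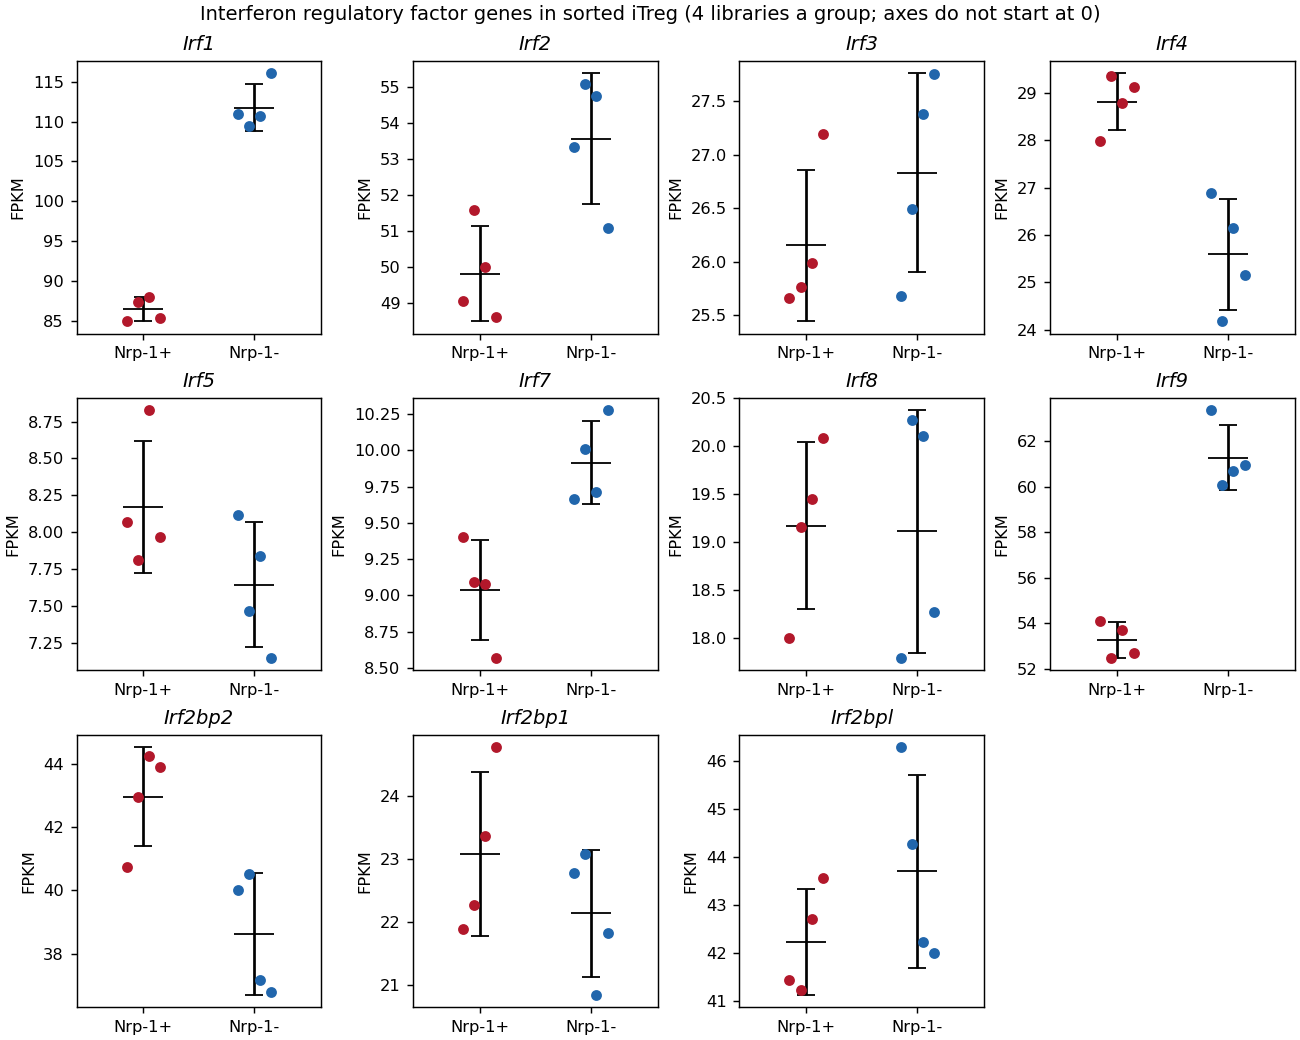
Level of each family gene in FPKM (vertical axes, which do not start at 0) in the 4 Nrp-1+ iTreg libraries (red) and the 4 Nrp-1- iTreg libraries (blue). Points are libraries, the wide bar is the mean and the error bar 1 SD; Irf1 and Irf9 lay lower in Nrp-1+ iTreg, Irf4 and Irf2bp2 higher, with no overlap.

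The largest difference was that of Irf1, which activates interferon-γ targets such as antigen-processing genes and opposes Foxp3 expression in T cells. Irf1 was at 85.0, 87.4, 88.0 and 85.4 FPKM in Nrp-1+ iTreg libraries 1 to 4, and at 110.9, 109.4, 110.7 and 116.1 FPKM in those of Nrp-1- iTreg. Every Nrp-1+ iTreg library lay at least 21.4 FPKM under every Nrp-1- iTreg library. The means were 86.5 ± 1.49 and 111.8 ± 2.93 FPKM (SD, n = 4 each), a log2 fold change of -0.37 with an SE of 0.02 and an adjusted p of 1.02e-05 by limma. The gene lies at chr11:53770014-53778374 (plus strand, GRCm38.p6), and its exons overlap those of Gm17334 on the opposite strand. Under each of the 21 other settings tried Irf1 passed the test, with log2 fold changes from -0.40 to -0.30. Among the 4282 genes called, it ranked 1014 by size of change. The exact two-sided Mann-Whitney p was 0.0286, as low as 4 libraries a group can go, and the other members without overlap had the same p.

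Irf2, which binds many of the sites of Irf1 and mostly represses them, stood at 49.1, 51.6, 50.0 and 48.6 FPKM in Nrp-1+ iTreg libraries 1 to 4. It was at 53.3, 55.1, 54.8 and 51.1 FPKM in Nrp-1- iTreg. The groups overlapped through library 2 of Nrp-1+ iTreg and library 4 of Nrp-1- iTreg. The means of 49.8 ± 1.32 and 53.6 ± 1.81 FPKM (SD, n = 4 each) differed by -6.99%, with a log2 fold change of -0.10 (SE 0.03), an adjusted p of 0.0275 by limma and an exact Mann-Whitney p of 0.0571. Irf2 had the weakest call of the 6. With libraries scaled to an equal sum without short RNA genes its log2 fold change was -0.041 (adjusted p = 0.465 by limma). It also did not pass by limma when 1 of 6 libraries was left out. The adjusted p by limma was then 0.0679, 0.0554 and 0.0640 without Nrp-1+ iTreg library 1, 3 or 4, and 0.0521, 0.0695 and 0.0700 without Nrp-1- iTreg library 1, 2 or 3.

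Irf9, the DNA-binding subunit of the interferon-stimulated gene factor complex (ISGF3), was at 54.1, 52.5, 53.7 and 52.7 FPKM in Nrp-1+ iTreg libraries 1 to 4 and at 63.3, 60.1, 60.7 and 61.0 FPKM in Nrp-1- iTreg. The groups lay 5.97 FPKM apart. The means were 53.3 ± 0.778 and 61.3 ± 1.43 FPKM (SD, n = 4 each), which is -13.0%, with a log2 fold change of -0.20 (SE 0.02) and an adjusted p of 0.000255 by limma. The call held under all 21 settings, with log2 fold changes from -0.23 to -0.14. Exons of Irf9, which lies at chr14:55603985-55610030 (plus strand), overlap those of Rnf31 on the same strand in the GENCODE M21 annotation, and Rnf31 was at 24.0 and 26.8 FPKM (-10.3%, adjusted p = 0.0103 by limma). How the authors assigned reads in that overlap is not given in the sources used here, so the value of Irf9 is uncertain to that extent.

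Irf7, which amplifies type I interferon production, was at 9.40, 9.09, 9.08 and 8.57 FPKM in Nrp-1+ iTreg libraries 1 to 4 and at 9.66, 10.0, 9.71 and 10.3 FPKM in Nrp-1- iTreg. The groups did not overlap, but only 0.261 FPKM separated them. The difference was -8.87% (9.04 ± 0.345 against 9.92 ± 0.286 FPKM, SD, n = 4 each), with a log2 fold change of -0.12 (SE 0.03) and an adjusted p of 0.0229 by limma. Without Nrp-1- iTreg library 2 or 4 it was 0.0557 or 0.0611, and under the equal-sum scaling it was 0.156 with a log2 fold change of -0.065. With a replicate block it was 0.0817, and 0.0991 with the GC and length correction added. Irf7 lies at chr7:141263183-141266499 (minus strand), where its exons overlap those of Phrf1 on the opposite strand, and whether the reads of the 2 genes were told apart there is not known, because the named kits differ and the use of strand in the counting was not stated. Phrf1 was at 18.1 and 19.1 FPKM (adjusted p = 0.0768 by limma).

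Irf4, which cooperates with Batf and Jun proteins at composite elements, was the member with the largest increase on the log2 scale. In FPKM, Irf2bp2 rose by more (4.34 against 3.22 for Irf4). Without Nrp-1- iTreg library 2 the log2 fold change was 0.17 for Irf2bp2 and 0.14 for Irf4. Irf4 was at 28.0, 29.3, 28.8 and 29.1 FPKM in Nrp-1+ iTreg libraries 1 to 4 and at 26.9, 24.2, 26.1 and 25.2 FPKM in Nrp-1- iTreg. The groups lay 1.10 FPKM apart, about as wide as the 1.17 FPKM SD within Nrp-1- iTreg. The log2 fold change was 0.17, with a 95% interval of 0.09 to 0.25, and the adjusted p by limma ran from 0.00403 to 0.0190 when each library was left out in turn. The call was lost under the GC and length correction combined with a replicate block (0.13, adjusted p = 0.0919 by limma). In size it ranked 2999 of the 4282 genes called, behind Irf1 and Irf9. Irf4, at chr13:30749233-30766981 (plus strand), shares no exon bases with another gene in GENCODE M21, and neither do Irf2, at chr8:46739745-46847458, and Irf8, at chr8:120736358-120756694 (both plus strand).

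Irf2bp2, the co-repressor that binds Irf2 and that also restrains NFAT-driven transcription, was at 40.7, 43.0, 44.2 and 43.9 FPKM in Nrp-1+ iTreg libraries 1 to 4. It was at 40.0, 40.5, 37.2 and 36.8 FPKM in Nrp-1- iTreg. Library 1 of Nrp-1+ iTreg and library 2 of Nrp-1- iTreg came within 0.226 FPKM of each other. The means of 43.0 ± 1.57 and 38.6 ± 1.91 FPKM (SD, n = 4 each) differed by 11.2%, with a log2 fold change of 0.15 (SE 0.04) and an adjusted p of 0.0186 by limma. This p was 0.0518 without Nrp-1+ iTreg library 3 and 0.0511 without Nrp-1- iTreg library 3, and with a replicate block it was 0.0666 (0.0667 with the GC and length correction added). Its exons, within chr8:126588296-126593986 (minus strand), overlap those of Gm26759 on the opposite strand. Irf2 and its co-repressor thus differed in opposite directions between the sorted groups.

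Irf3, the constitutive factor activated by Tbk1, did not differ beyond the spread of the libraries. It was at 25.7, 25.8, 26.0 and 27.2 FPKM in Nrp-1+ iTreg and 25.7, 26.5, 27.4 and 27.8 FPKM in Nrp-1- iTreg, with a log2 fold change of -0.04 (95% interval -0.11 to 0.04, adjusted p = 0.396 by limma). Irf3 reversed to 0.025 when libraries were scaled to an equal sum without short RNA genes, and it passed as lower (-0.08, adjusted p = 0.0285 by limma) after a correction for GC content and length. Exons of Irf3, at chr7:44997648-45002848, overlap Bcl2l12, and those of Irf5, at chr6:29526130-29541869 (both plus strand), overlap Tnpo3, each partner on the opposite strand.

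Irf8 and Irf5, the factors of myeloid cells and B cells, were both present and neither passed. Irf8 was at 18.0, 19.2, 19.4 and 20.1 FPKM in Nrp-1+ iTreg and at 17.8, 20.3, 20.1 and 18.3 FPKM in Nrp-1- iTreg, and the ranges overlapped almost entirely. Its log2 fold change was 0.01 with a 95% interval of -0.11 to 0.12 (adjusted p = 0.944 by limma), and its sign changed with the setting. Irf5 was at 8.07, 7.81, 8.83 and 7.97 FPKM in Nrp-1+ iTreg and at 8.12, 7.46, 7.84 and 7.15 FPKM in Nrp-1- iTreg, with a log2 fold change of 0.09 (95% interval -0.03 to 0.20, adjusted p = 0.194 by limma). Beside Irf5 and Irf8, the summed markers of myeloid and dendritic cells covered 6.76 to 7.40 FPKM in the Nrp-1+ and 5.60 to 6.33 FPKM in the Nrp-1- libraries, nearly all of it Itgam (6.70 and 5.56 FPKM, called higher). Those of B cells covered 5.21 to 5.91 FPKM and 4.01 to 5.80 FPKM, mostly Cd79b, with Ms4a1, Pax5 and Blnk at 0, and those of CD8 T and NK cells 7.12 to 8.82 FPKM and 9.44 to 11.3 FPKM, mostly Cd8b1 (7.86 and 10.0 FPKM, called lower with no overlap, adjusted p = 0.0119 by limma). The part of other cells in the values of Irf5 and Irf8 was not tested.

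Irf2bp1 and Irf2bpl did not pass (adjusted p = 0.357 and 0.318 by limma). They had log2 fold changes of 0.06 (95% interval -0.05 to 0.16) and -0.05 (-0.13 to 0.03), the latter turning to 0.014 when libraries were scaled to an equal sum without short RNA genes. The increase of Irf2bp2 thus had no counterpart that passed the test in its 2 relatives, though the differences between the 3 genes were not tested.

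**Figure D2:**
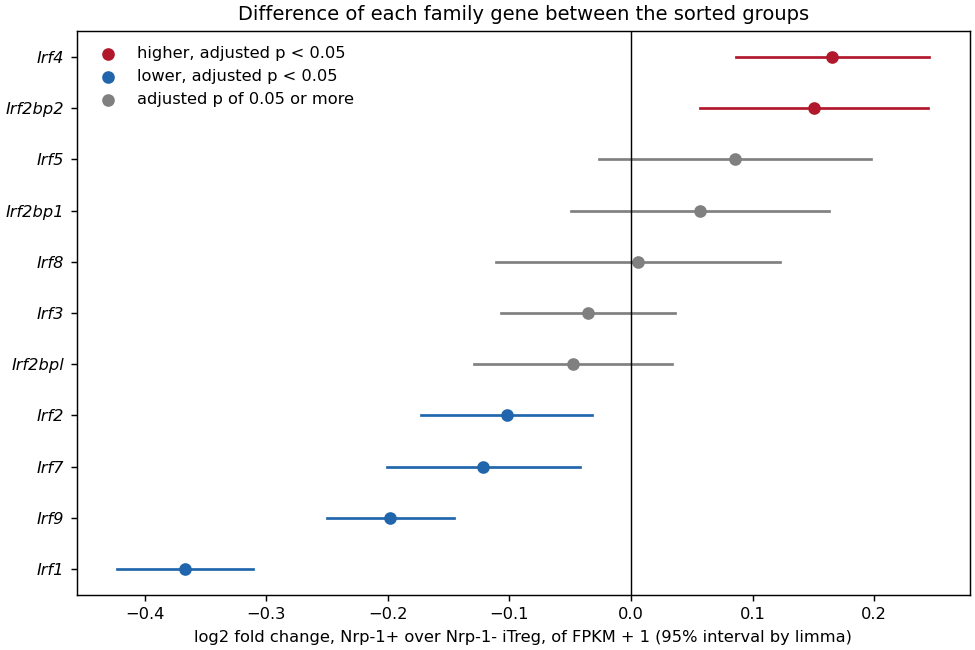
Log2 fold change of FPKM + 1, Nrp-1+ over Nrp-1- iTreg (horizontal axis), for the 11 family genes, with the 95% interval by limma from 4 libraries a group. Irf4 and Irf2bp2 (red) passed as higher, Irf2, Irf7, Irf9 and Irf1 (blue) as lower, and the grey genes had an adjusted p of 0.05 or more.

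Ratios inside a library do not depend on the scaling between libraries, and 3 were compared. Irf1 to Irf2 was 1.73, 1.69, 1.76 and 1.76 in Nrp-1+ iTreg libraries 1 to 4 and 2.08, 1.99, 2.02 and 2.27 in Nrp-1- iTreg. The ratio of the activator to its competitor was thus lower in every Nrp-1+ iTreg library, at 1.74 ± 0.0300 against 2.09 ± 0.127 (SD, n = 4 each), a log2 difference of -0.27 (exact permutation p = 0.0286). Adjusted over the 3 ratios this p was 0.0429, but without Irf4 to Irf1 it was 0.0571 and did not pass. The ranges of the 2 genes already fixed this separation. Irf1 was at most 88.0 FPKM in Nrp-1+ and at least 109.4 FPKM in Nrp-1- iTreg, while Irf2 ran only from 48.6 to 55.1 FPKM. Irf1 to Irf2 is therefore given as a description, and of the 3 ratios only Irf4 to Irf8 had an open outcome. Irf4 to Irf1 was 0.329, 0.336, 0.327 and 0.341 in Nrp-1+ iTreg libraries 1 to 4 and 0.242, 0.221, 0.236 and 0.217 in Nrp-1- iTreg. Its means were 0.333 ± 0.00641 and 0.229 ± 0.0122 (SD, n = 4 each), 45.6% apart or 0.54 on the log2 scale. Since Irf4 was higher and Irf1 lower in every Nrp-1+ iTreg library, this ratio had to separate the groups, and it is given as a description. Irf4 to Irf8, 2 members that can bind the same composite elements, was 1.50 ± 0.0478 against 1.35 ± 0.134, and the groups overlapped (exact permutation p = 0.0857). A p of 0.0286 is the smallest possible here, and with 1 library left out no ratio can reach an adjusted p of 0.05.

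**Figure D3:**
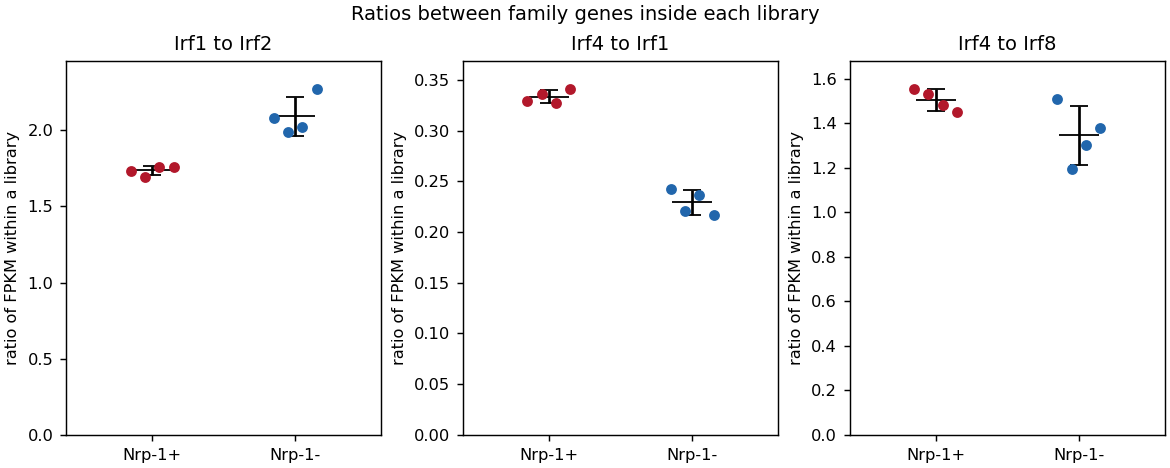
Ratio of FPKM between 2 family genes inside each library (vertical axes from 0), for 4 Nrp-1+ iTreg libraries (red) and 4 Nrp-1- iTreg libraries (blue), with the mean and 1 SD. Irf1 to Irf2 was lower and Irf4 to Irf1 higher in each Nrp-1+ iTreg library, and Irf4 to Irf8 overlapped.

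Of 15 listed partners with which IRF proteins bind DNA, 12 were tested, 4 passed as higher and 4 as lower (33.3% each, against 20.9% and 20.0% of all tested genes). Their median log2 fold change of -0.03 turned to 0.030 under the equal-sum scaling and was -0.056 after the GC and length correction. Spib and Batf3 were under the filter, and Spi1 was not analysed here. When the filter was dropped, Batf3 passed as higher (0.385 against 0.0635 FPKM, adjusted p = 0.0112 by limma) and Spib did not pass (0.315). Stat2, which forms ISGF3 with Irf9, was at 11.8 FPKM in Nrp-1+ and 12.1 FPKM in Nrp-1- iTreg and did not pass (-1.92%, adjusted p = 0.771 by limma).

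Among the partners of Irf4, Batf was lower while 2 of 3 Jun proteins were higher. Batf was at 50.8 ± 1.81 FPKM in Nrp-1+ iTreg against 55.1 ± 2.44 FPKM in Nrp-1- iTreg (SD, n = 4 each, -7.92%, adjusted p = 0.0377 by limma), with overlap. Jund was at 212.6 against 189.9 FPKM (11.9%, adjusted p = 0.0402, with overlap) and Junb at 220.2 against 205.1 FPKM (7.36%, adjusted p = 0.0455). Foxp3, the Treg master factor, was at 115.8 ± 3.72 against 108.8 ± 1.20 FPKM (6.44%, adjusted p = 0.0245), and Nfatc2 was 7.48% higher (adjusted p = 0.0459, with overlap). Ets1 and Vgll4 were lower in Nrp-1+ iTreg (-8.29% and -12.6%, adjusted p = 0.00691 and 0.0340 by limma). Of the partners, 0 were called higher without Nrp-1+ iTreg library 2 or Nrp-1- iTreg library 3. It was 1 without Nrp-1+ iTreg library 3 or 4 or Nrp-1- iTreg library 4, and 2 without Nrp-1- iTreg library 2. The count lower was 2 without Nrp-1+ iTreg library 1 or 2 or Nrp-1- iTreg library 1.

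Of the sensors and kinases that activate Irf3, Irf5 and Irf7, 18 of 20 were tested, 1 was higher and 5 were lower (5.56% and 27.8%, against 20.9% and 20.0% of all tested genes), with a median log2 fold change of -0.07 (-0.011 under the equal-sum scaling and -0.11 after the GC and length correction). The 33.3% called lay under the 40.9% of all tested genes, so the count says little about the list. Mb21d1 (cGAS), the cytosolic DNA sensor upstream of Irf3, was the exception and was at 6.07 to 6.97 FPKM in Nrp-1+ iTreg and 3.53 to 3.86 FPKM in Nrp-1- iTreg, which is 75.9% higher (adjusted p = 1.62e-05 by limma). Ikbke, 1 of 2 kinases that phosphorylate Irf3 and Irf7, fell from 44.6 ± 0.602 to 37.5 ± 0.500 FPKM (-15.8%, adjusted p = 3.32e-05). Tbk1, the other, was at 21.3 FPKM in Nrp-1+ and 22.5 FPKM in Nrp-1- iTreg and did not pass (adjusted p = 0.0926 by limma). Also lower were Slc15a4 (-15.0%), which acts with the endosomal Toll-like receptors, and the signalling genes Irak4 (-12.3%) and Myd88 (-10.5%), with adjusted p-values of 0.0276, 0.0196 and 0.00499 by limma. The groups overlapped for Slc15a4 and Irak4 but not for Myd88. The fifth was Ticam1, the adaptor of Tlr3 (-10.3%, adjusted p = 0.0169 by limma). The count lower was 3 without Nrp-1- iTreg library 3.

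Of the 7 interferon receptors and Janus kinases, which act upstream of Irf9 and Irf1, 0 were higher and 4 lower by limma (0 and 5 at an unadjusted p under 0.05; 57.1% lower against 20.0% of all tested genes), with a median log2 fold change of -0.10 (-0.041 under the equal-sum scaling). Ifngr1, the ligand-binding chain of the interferon-γ receptor, fell from 202.3 ± 2.11 to 170.2 ± 3.14 FPKM (-15.8%, adjusted p = 3.38e-05 by limma). Jak1, the kinase shared by both receptor types, fell from 202.5 ± 3.26 to 177.6 ± 3.87 FPKM (-12.3%, adjusted p = 0.000329). Ifnar1, a chain of the type I receptor, fell from 35.3 ± 0.995 to 31.3 ± 0.753 FPKM (-11.3%, adjusted p = 0.00184 by limma), and Ifngr2 was lower with overlap of the groups (-6.70%, adjusted p = 0.0397).

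Of 26 interferon-response targets 17 were tested, and 9 lay under the filter, Mx1, Rsad2 and Oas2 among them. When the filter was dropped, Ifit3 passed as lower (0.810 against 1.19 FPKM, adjusted p = 0.0151 by limma), while Mx1, Rsad2 and Oas2 did not pass. By limma 0 passed as higher and 7 as lower (1 and 8 at an unadjusted p under 0.05; 41.2% lower against 20.0% of all tested genes), with a median log2 fold change of -0.09 (-0.031 under the equal-sum scaling and -0.14 after the GC and length correction). Usp18, a brake on the type I receptor, was at 2.93 ± 0.335 against 4.09 ± 0.587 FPKM (-28.3%, adjusted p = 0.0177 by limma, with overlap). Ifit1, an RNA-binding antiviral protein, was at 1.02 ± 0.148 against 1.52 ± 0.229 FPKM (-33.0%, adjusted p = 0.0235). Nlrc5, the activator of MHC class I genes, was lower (-19.5%, adjusted p = 0.000496), and so was Gbp2, a guanylate-binding GTPase (-17.9%, adjusted p = 0.000887). The counts were 2 higher and 4 lower under the equal-sum scaling and 1 higher and 4 lower without Nrp-1- iTreg library 2, and 4 were lower with quantile normalization or a replicate block. Usp18 and Ifit1 lay near the filter, where log2(FPKM + 1) understates a change most.

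Genes linked to Irf4 in T cells had 4 of 14 tested higher and 2 lower, or 42.9% called against 40.9% of all tested genes, with a median log2 fold change of 0.04 (0.10 under the equal-sum scaling and 0.0038 after the GC and length correction). Ebi3, a subunit of IL-35, was at 9.30 ± 1.25 against 4.99 ± 0.805 FPKM (86.3% higher, adjusted p = 0.00117 by limma). The chemokine receptor Ccr8 was 38.2% higher (adjusted p = 0.000644), the costimulatory receptor Tnfrsf9 21.8% (0.00856) and the IL-2 receptor chain Il2ra 16.5% (0.000108). Prdm1, which encodes Blimp-1, a target of Irf4 in effector Treg, was lower, at 1.98 ± 0.177 against 2.65 ± 0.216 FPKM (-25.1%, adjusted p = 0.00859 by limma), and the inhibitory receptor Ctla4 was lower as well (-10.3%, adjusted p = 0.000938). Of the 7 linked genes under the filter, Ccr6 and Il1rl1 passed as higher (adjusted p = 0.00195 and 0.0404 by limma) and Il4 as lower (0.0224) when the filter was dropped. Il10 was at 0.0726 to 0.308 FPKM in Nrp-1+ iTreg and 0.0842 to 0.230 FPKM in Nrp-1- iTreg, and did not pass in that fit (adjusted p = 0.761 by limma).

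The antigen receptor pathway that induces Irf4 had 1 of 15 genes higher and 4 lower, or 33.3% called against 40.9% of all tested genes, with a median log2 fold change of -0.03 that turned to 0.028 under the equal-sum scaling and was -0.075 after the GC and length correction. Plcg1, Prkcq and Lat, which carry the signal from the receptor, were lower (-11.8%, -11.3% and -10.3%, adjusted p = 0.000912, 0.000498 and 0.00466 by limma). Nfkb1 was 5.62% higher (adjusted p = 0.0350) and Rel, an NF-kB subunit that acts on Irf4, was at 10.3 and 10.4 FPKM (adjusted p = 0.888 by limma). The call of Nfkb1 was lost without Nrp-1+ iTreg library 1, 2 or 4 or Nrp-1- iTreg library 3 or 4, which left 0 genes of the pathway higher.

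Proliferation genes moved with these results and by more. All 10 listed were higher in Nrp-1+ iTreg, with a median log2 fold change of 0.92, among them Mcm5 (83.0 against 41.0 FPKM), Top2a (346.2 against 173.2 FPKM), Aurkb (76.3 against 38.8 FPKM) and Ccna2 (169.2 against 86.9 FPKM). Their part in the values of the IRF genes was not tested.

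**Figure D4:**
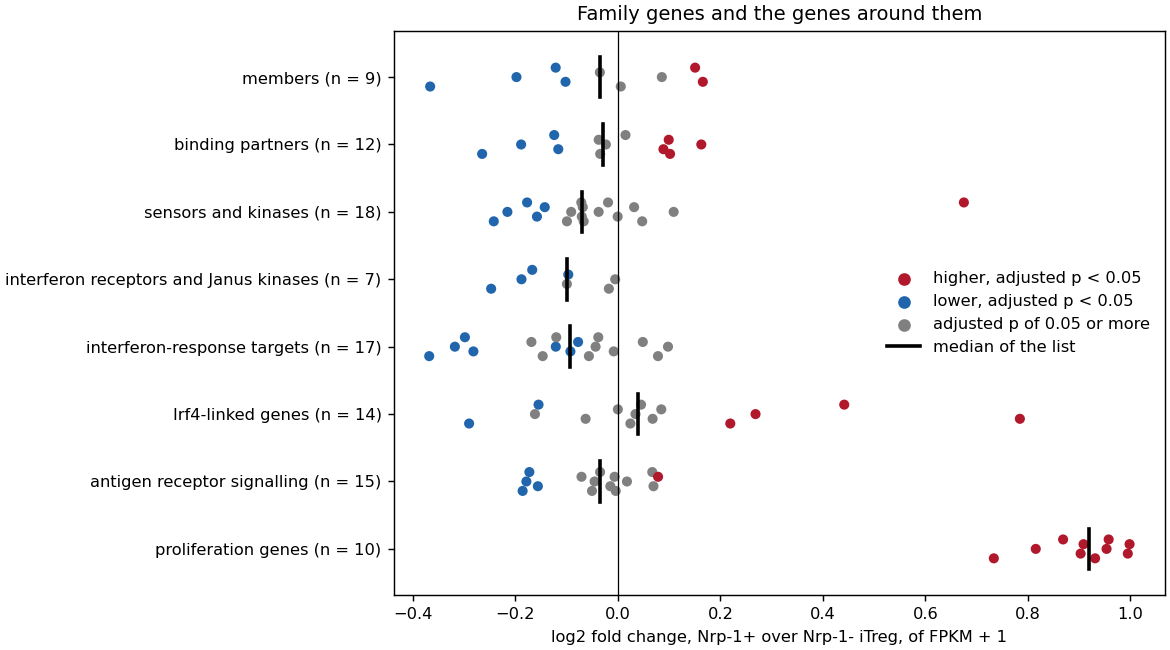
Log2 fold change of FPKM + 1, Nrp-1+ over Nrp-1- iTreg (horizontal axis), of the tested genes of each list, with the list median as a black bar. Points are genes, red where higher and blue where lower at an adjusted p under 0.05; interferon receptor genes hold no red point, and the 10 proliferation genes lie far to the right of the members.

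The genes whose profile over the 8 libraries was nearest to that of Irf4 or Irf1 were sought among 10199 tested genes, by the root mean square difference of the centred log2 values. Nearest to Irf4 were Ubr7 (0.0215), Txlna (0.0228) and Erc1 (0.0242). Nearest to Irf1 were Gigyf1 (0.0280), Ctse (0.0284) and Jmjd6 (0.0290). These are descriptions over 8 libraries, in which the difference between the groups dominates the profile.

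**Figure D5:**
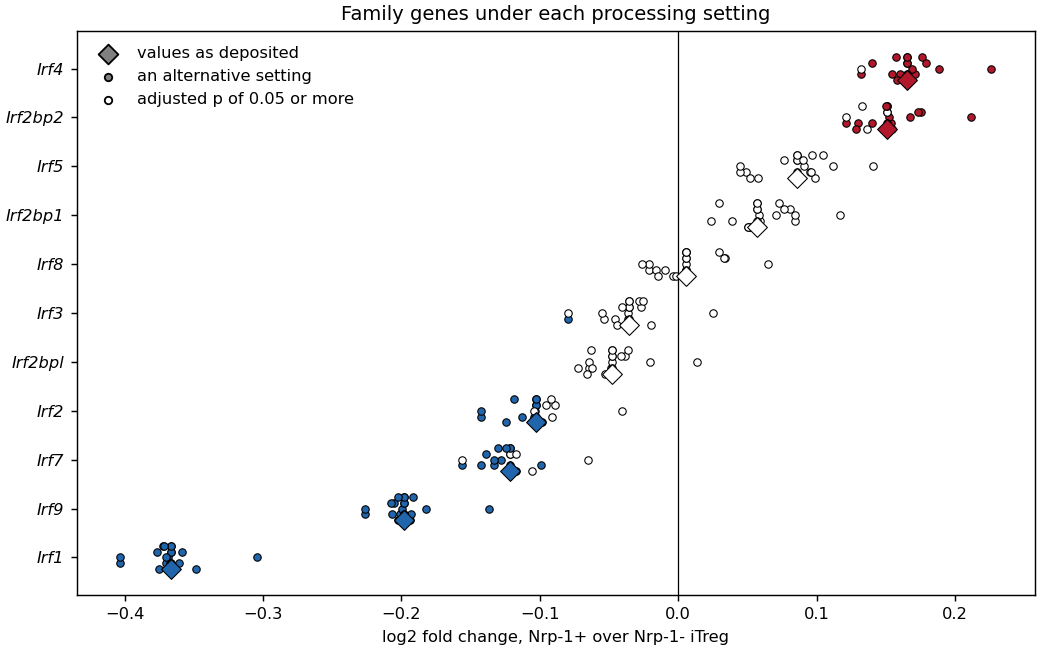
Log2 fold change, Nrp-1+ over Nrp-1- iTreg (horizontal axis), of the 11 family genes with the values as deposited (diamonds) and under each alternative setting (circles), filled where the adjusted p was under 0.05. Irf1 and Irf9 are filled throughout, Irf2 and Irf7 are open under several settings, and Irf8 lies on both sides of 0.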

How the data were processed

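The 8 libraries were 4 of Nrp-1+ and 4 of Nrp-1- iTreg. The authors used the CLC Genomics Workbench and Cufflinks, and the deposited values are FPKM of 23361 gene symbols in each library. The submitters' processing notes name the builds GRCm38 and mm10, and the paper's methods name a directional library kit, though the use of strand in counting is not given in the sources used here. FPKM were used as deposited, although they may already have been scaled between libraries. Since FPKM are not counts, genes with a mean of at least 1 FPKM (10467) were tested on log2(FPKM + 1) by limma 3.58.1 (lmFit, and eBayes with trend; R 4.3.3), adjusted by Benjamini-Hochberg, after the fit was tested on simulated data. A fold change on this scale understates that of low genes. Exact tests, motif searches and plots were run with scipy 1.17.1, numpy 2.4.6, matplotlib 3.10.9 and pandas 2.3.3 (Python 3.11.15).

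An exact Mann-Whitney test was used because the study's methods name Mann-Whitney among their tests. Read counts were not used, so depth is known only as a ratio between libraries, from low genes of which 54.3% to 58.9% were in whole-number ratio to the first library within 0.5%, and no counting interval was computed. Groups and replicate numbers came from the sample descriptions. Named were all family genes, up to 4 genes in each direction with the largest change among those called in each further list, a fixed set of list genes in any case, and the 3 nearest profiles of the members that rose and fell most on the log2 scale. Others named for overlap, the sort, cell markers, the filter or to complete a count were chosen after their values were seen. The members and lists were chosen with earlier results of these data known. Alternatives were pseudocounts of 0.1 and 0.5, no filter, a filter at 5 FPKM, median-of-ratios size factors, quantile normalization, an equal sum without short RNA genes, array weights, eBayes without trend, a block for the replicate number, a GC and length correction (splines with 5 degrees of freedom, 99.4% of tested genes), and each library left out. A fit without short RNA genes (779 symbols) was chosen after seeing the data. GENCODE M21 served for exon overlap, length and GC content, and RefSeq for coordinates and promoters. No protein sequence was used. The values of 3 genes are not reported here on their own, although list counts hold them where they were tested.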

Additional observations from a re-analysis of the deposited data

Results flagged for a closer look

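Of 30 groups of 4 libraries checked, 1 held a library far from the other 3, and about 1.5 would be so by chance alone. The relative depth of library 3 of Nrp-1+ iTreg was 1.22, against 0.994 to 1.00 in the other 3. Without that library Irf2bp2 had an adjusted p of 0.0518 by limma and Irf2 one of 0.0554, while Irf1 and Irf9 passed.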

How the results depend on the processing

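Irf1 and Irf9 passed as lower under all 21 alternatives, and Irf5, Irf8, Irf2bp1 and Irf2bpl passed under none. With libraries scaled to an equal sum without short RNA genes, 2754 genes were higher and 973 lower, against 2189 and 2093 as deposited, and after the GC and length correction 1834 and 2748, so the split between directions depends on scaling. Under the equal sum Irf3 reversed to 0.025 and Irf2bpl to 0.014 on the log2 scale, the median of the binding partners to 0.030 and that of antigen receptor signalling to 0.028, Irf2 and Irf7 did not pass (adjusted p = 0.465 and 0.156 by limma), and the counts were 2 members lower, 1 partner lower, 2 sensors lower, 2 interferon-response targets higher and 4 lower, and 2 antigen receptor genes higher. Irf8 reversed to -0.0094 under quantile normalization, -0.0036 with array weights and -0.021 under the GC and length correction without and with the replicate block. The cause was not tested.

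Same-numbered libraries did not deviate together (correlations of -0.54, -0.02, 0.01 and -0.50 for numbers 1 to 4), so the labels' numbers were not taken as pairs. Without short RNA genes these correlations were -0.04, -0.06, -0.08 and -0.11. With the replicate block 1931 genes were higher and 1675 lower, and by limma Irf4 kept an adjusted p of 0.0334, while Irf2bp2 (0.0666) and Irf7 (0.0817) did not pass. With the block 1 member, 1 partner and 0 antigen receptor genes were higher, and 3 sensors and 4 interferon-response targets lower. The log2 ratios Irf1 to Irf2 and Irf4 to Irf1 stayed at -0.27 and 0.54, and the former had the smallest p that 4 pairs allow (exact permutation p = 0.125). With the block and the GC and length correction together 0 members, 1 partner and 0 antigen receptor genes were higher and 4 interferon-response targets lower, and Irf4 had an adjusted p of 0.0919 by limma (log2 fold change 0.13).

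Partners higher and lower were 1 and 2 under quantile normalization and 2 and 2 with no filter, and 2 were higher without trend and 1 under the GC and length correction, which also gave 9 sensors lower and 4 Irf4-linked genes lower. Under quantile normalization 4 interferon-response targets and 1 Irf4-linked gene were lower. Antigen receptor genes higher were 0 under quantile normalization, without trend and under the GC and length correction. A filter at 5 FPKM left 1 Irf4-linked gene lower, and 1 interferon-response target was higher without short RNA genes, a setting chosen after seeing the data.

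With each library left out in turn, Irf8 ran from -0.026 to 0.034 on the log2 scale, 1 to 2 members were higher and 2 to 4 lower, 0 to 4 partners higher and 2 to 4 lower, 3 to 5 sensors lower, 0 to 1 interferon-response targets higher and 4 to 7 lower, and 0 to 1 antigen receptor genes higher. The log2 ratio Irf1 to Irf2 ran from -0.29 to -0.23 and Irf4 to Irf1 from 0.52 to 0.57, and the adjusted exact permutation p of the former ran from 0.0571 to 0.0857 and cannot fall under 0.05 in the smaller design. The 4 called members with smaller differences than Irf9 (Irf2, Irf7, Irf2bp2 and Irf4) each lost the call under at least 1 alternative.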
